A study of Mus musculus with 6 samples.

Results

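The membrane mucins of the ocular surface were described across 6 arrays of mouse conjunctival epithelium, taking Muc1, Muc4, Muc13, Muc15, Muc16 and Muc20 together with Lgals3, the gene of galectin-3, a lectin that binds their sugar chains. Every probe set whose gene ID or gene name stood for 1 of these 7 genes was a member. That gave 11 of the 45101 probe sets on the array, for 6 of the 7 genes, and no probe set was matched to Muc15. Of the 11 probe sets, 8 were called Present on at least 3 of the 6 arrays and were tested, and all 6 genes had at least 1 of these among 11899 genes tested.

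The groups were 3 samples of Spdef -/- mice and 3 samples of Spdef +/+ mice. The Spdef protein belongs to the ETS transcription factors and is known from epithelia that secrete mucus. All mice were 8 weeks old and of C57BL/6 background, and each sample combined 1 eye of a male with 1 eye of a female, so that no sample is a single animal. The samples were 6 µm sections of eyes and lids, from which the 40% of the conjunctival epithelium closest to the fornix, where the lid lining folds back onto the eye, was captured with a laser. The sources used here do not give how the Spdef allele was made. The labels call the samples biological replicates, and the p-values measure the spread between these pools of 2 eyes.

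Membrane mucins are large glycoproteins anchored in the apical membrane of wet epithelia, where their O-glycosylated extracellular parts stand out into the tear film as a glycocalyx. On the ocular surface galectin-3 cross-links them through their sugar chains into a barrier, enzymes at the cell surface can cut their extracellular parts free, and their short tails reach the actin cortex and signalling proteins. They differ from the gel-forming mucins of goblet cells, such as Muc5ac, which are secreted and not anchored.

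The genes lie at 4 places on GRCm38.p6 in the RefSeq annotation, apart from Muc15 on chromosome 2. Muc1 lies at chr3:89229056-89233381 on the plus strand, Muc16 at chr9:18495445-18674821 on the minus strand and Lgals3 at chr14:47373860-47386167 on the plus strand. Muc4 (chr16:32735886-32782391, plus strand), Muc20 (chr16:32777419-32797435, minus strand) and Muc13 (chr16:33794037-33819929, plus strand) lie within 1084044 bases of each other. The annotated Muc4 and Muc20 genes overlap by 4973 bases on opposite strands.

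The promoters of Muc16 and Muc1, whose signals were lower in Spdef -/- epithelium, and of Muc4, whose signals were not called, are shown as the 250 bases before an annotated start in RefSeq. Capitals mark GGAA and GGAT, the cores bound by ETS factors, and their reverse complements TTCC and ATCC, so that both strands are covered. The windows are chr9:18674604-18674853 on the minus strand for Muc16, chr3:89228806-89229055 on the plus strand for Muc1 and chr16:32735636-32735885 on the plus strand for Muc4. Most of the Muc16 window lies inside the annotated gene, which reaches to chr9:18674821, so the start it precedes is internal. The Muc1 and Muc4 windows lie wholly before their genes.
Muc16: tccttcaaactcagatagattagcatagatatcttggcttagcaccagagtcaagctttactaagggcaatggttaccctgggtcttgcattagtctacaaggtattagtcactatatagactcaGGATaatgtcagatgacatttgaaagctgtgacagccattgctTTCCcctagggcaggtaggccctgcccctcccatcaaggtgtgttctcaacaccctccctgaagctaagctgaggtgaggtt
Muc1: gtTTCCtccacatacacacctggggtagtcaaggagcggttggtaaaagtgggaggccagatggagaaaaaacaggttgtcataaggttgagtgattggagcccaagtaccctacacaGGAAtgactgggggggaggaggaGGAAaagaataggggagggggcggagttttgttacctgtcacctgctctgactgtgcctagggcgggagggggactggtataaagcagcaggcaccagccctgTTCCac
Muc4: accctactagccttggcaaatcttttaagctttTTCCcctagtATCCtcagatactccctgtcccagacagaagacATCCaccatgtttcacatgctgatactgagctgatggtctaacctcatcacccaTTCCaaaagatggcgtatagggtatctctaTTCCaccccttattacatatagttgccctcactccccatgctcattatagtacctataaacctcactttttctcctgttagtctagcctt
The Muc16 window held 1 GGAA and 1 GGAT core, the Muc1 window 4 GGAA and 0 GGAT cores, and the Muc4 window 3 GGAA and 2 GGAT cores. Among 32851 promoter windows of the same length, 93.4% held GGAA (median 3) and 74.1% held GGAT (median 1). The longer letters CGGAT were in none of the 7 windows of the 6 genes and in 13.4% of all windows. These counts describe letters only, and no binding was measured.

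Before the members, the arrays were checked against their labels. Spdef averaged 2.52 ± 1.36 on the Spdef -/- arrays, called Present on 0 of 3, and 692 ± 107 on the Spdef +/+ arrays, called Present on 3 of 3 (mean ± SD of linear dChip signals, as everywhere below). All 6 keratins of the conjunctival surface list were Present on all 6 arrays. Krt4, Krt13 and Krt19 were higher and Krt18 lower in Spdef -/- epithelium, and the summed signals were 51256 to 61888 in Spdef -/- and 48534 to 50836 in Spdef +/+ epithelium. Basal epithelium markers summed to 51155 to 52953 in Spdef -/- and 46971 to 47813 in Spdef +/+ epithelium (2 higher and 2 lower of 6 tested). Corneal epithelium markers summed to 24995 to 27437 in Spdef -/- and 29229.98 to 35982 in Spdef +/+ epithelium (0 of 5 tested were called). Non-control probe sets called Present numbered 23290 to 23370 per Spdef -/- array and 24589 to 24833 per Spdef +/+ array, which did not overlap (exact permutation test, 2-sided, p = 0.1, the smallest that 3 against 3 allows). Summed signals of goblet cell markers were 3101 to 4846 in Spdef -/- and 33842 to 40689 in Spdef +/+ epithelium. All 6 tested markers were called lower, against 24.0% of all tested genes, and Tff3 and Clca1 were Present on no array. Muc5ac, Muc5b and Foxa3 entered the test through their Present calls in Spdef +/+ epithelium, where they were high. Summed neutrophil markers were 3557 to 8855 in Spdef -/- and 224 to 273 in Spdef +/+ epithelium. Most of the Spdef -/- sums came from S100a8 and S100a9, with means of 1927 and 3456, while Csf3r averaged 198. All 3 tested markers were called higher, against 15.8% of all tested genes, and Cxcr2 and Mpo were Present on no array. Csf3r entered the test through its Present calls in Spdef -/- epithelium, where it was high. Summed fibroblast markers were 16522 to 19403 in Spdef -/- and 26131 to 39740 in Spdef +/+ epithelium, with 4 of 6 tested markers lower. Fewer cells of a type and less RNA per cell cannot be told apart in such samples.

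Of the 6 tested member genes, Muc16 and Muc1 were lower in Spdef -/- epithelium and none was higher (limma, adjusted p under 0.05). Over all tested genes 39.7% were called, 24.0% as lower and 15.8% as higher, so the members' share of calls is near the background. The groups did not overlap for the same 2 genes, against 55.3% of all tested genes. Fitted singly, 2 of the 8 probe sets were called, both lower, against 33.5% of all tested probe sets called and 20.1% called lower. The median log2 difference was 0.04 over the 6 member genes and -0.06 over all tested genes. Muc16 entered the test through its Present calls in Spdef +/+ epithelium.

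**Figure D1:**
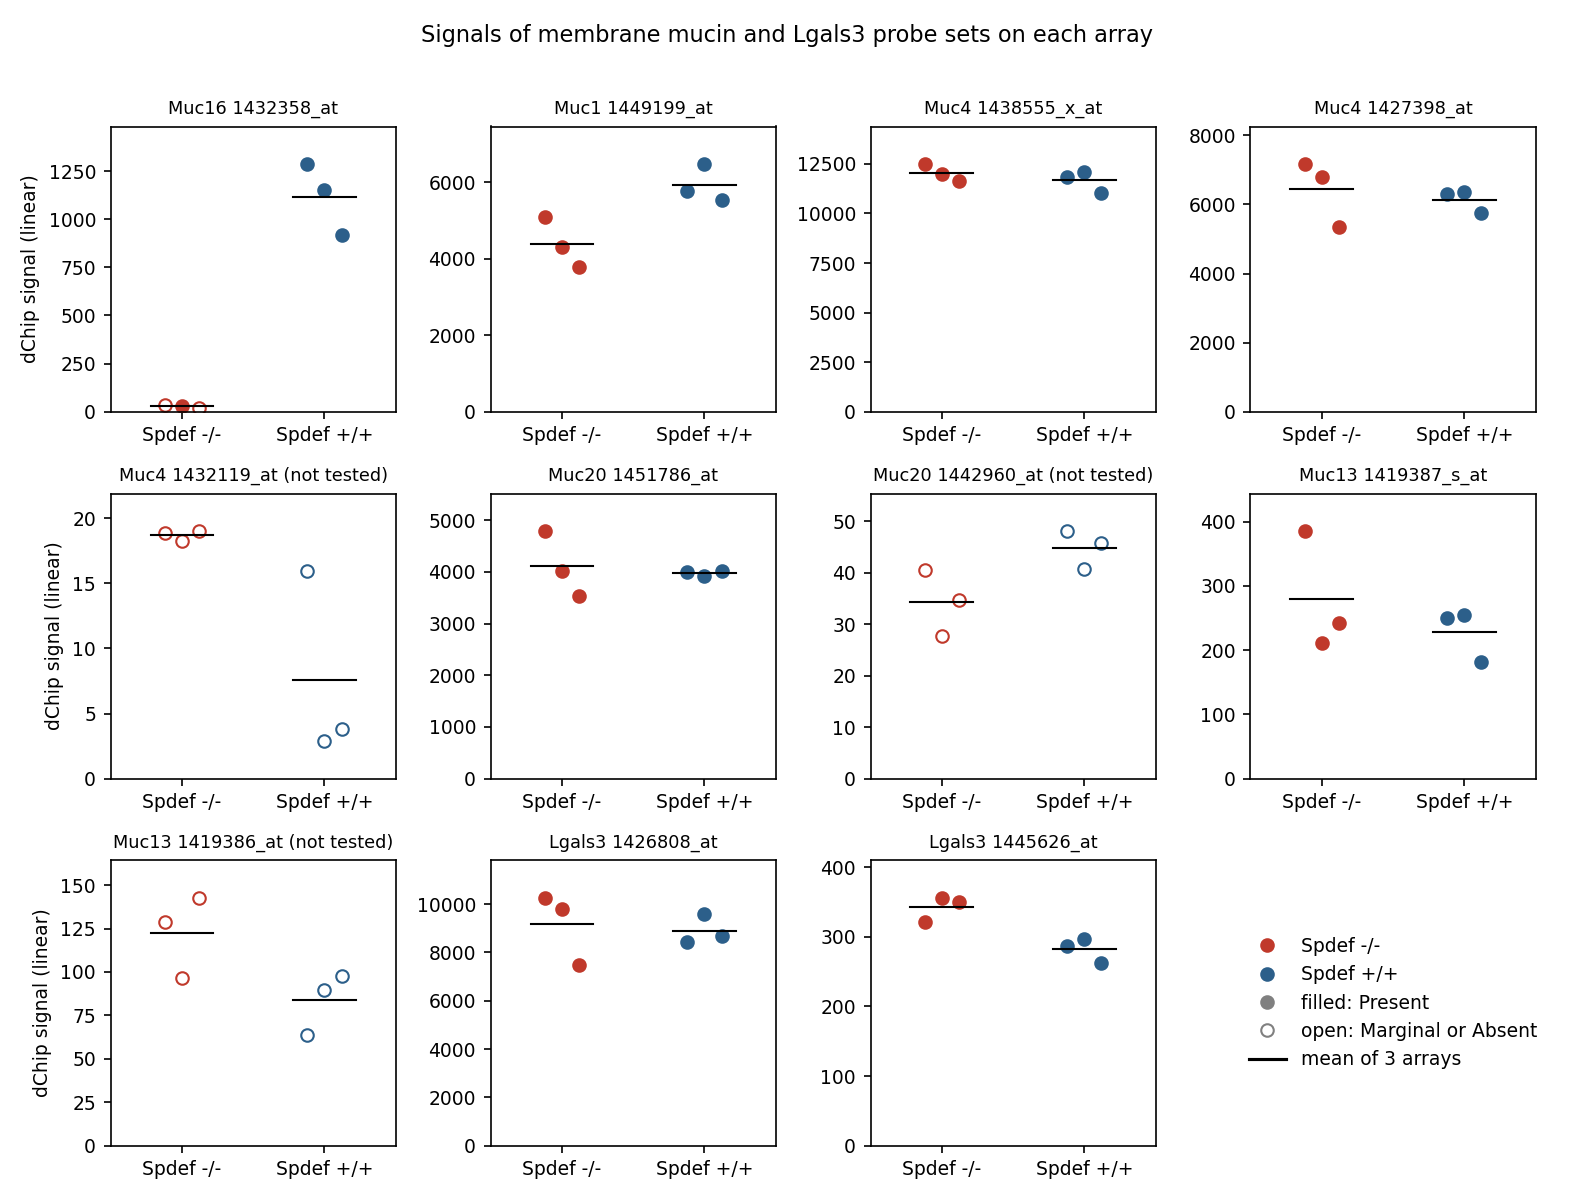
Signals of the 11 member probe sets on each array (linear dChip units, axes from 0), with Spdef -/- on the left and Spdef +/+ on the right of each panel; filled points were called Present, open points Marginal or Absent, and lines are means of 3 arrays. The Spdef -/- points of Muc16 lie between 18.3 and 32.8 and those of Spdef +/+ between 916 and 1289, while both groups overlap for the brightest probe sets of Muc4, Muc13, Muc20 and Lgals3.

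Muc16 (probe set 1432358_at) encodes the largest of the membrane mucins, a component of the apical glycocalyx whose tail binds the actin cortex through ERM proteins in human cells. The file names the probe set by a clone, and its gene ID is that of Muc16 in RefSeq. Signals were 32.8, 30.8 and 18.3 on Spdef -/- replicates 1, 2 and 3, called Marginal, Present and Absent, against 1289, 1150.1 and 916 on Spdef +/+ replicates 1, 2 and 3, all Present. Every Spdef -/- array lay far below every Spdef +/+ array. The means were 27.3 ± 7.86 in Spdef -/- and 1118 ± 188 in Spdef +/+ epithelium. The log2 difference was -5.39 with a standard error of 0.25 (95% interval -5.98 to -4.80), which is 41.9-fold lower, with an adjusted p of 8.65e-05 by limma. Since only 1 of the 3 Spdef -/- arrays called it Present, the size of the fall depends on how low signals are treated, and with a pseudocount of 32 the log2 difference was -4.27. The summed goblet cell markers, given above, were lower on the same 3 arrays, and their part in this result was not tested.

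The authors' deposited table of 153 probe sets held this probe set and no other member. There the probe set is 42.5-fold lower in Spdef -/- epithelium, with bounds of 28.3-fold and 76.9-fold lower. The means given are 26.3 for Spdef -/- and 1118.36 for Spdef +/+, with an unadjusted p of 0.00961.

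Muc1 (1449199_at) encodes a widely expressed membrane mucin of the ocular surface whose tail carries docking sites for signalling proteins. Signals were 5098, 4306 and 3795 on Spdef -/- replicates 1 to 3, against 5766, 6491 and 5552 on Spdef +/+ replicates 1 to 3. All 6 were Present, and the groups did not overlap, although the highest Spdef -/- value lay close under the lowest Spdef +/+ value. The means were 4399.6 ± 657 in Spdef -/- and 5936 ± 492 in Spdef +/+ epithelium. The log2 difference was -0.44 (95% interval -0.75 to -0.13), or 1.36-fold lower, with an adjusted p of 0.0356 by limma. This call held without Spdef -/- replicate 1 and was lost when any other single array was left out (adjusted p 0.0201 to 0.107).

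Muc4 encodes a membrane mucin whose extracellular part has EGF-like domains and which binds the receptor Erbb2 in rat and human cells. Its brightest probe set (1438555_x_at) had signals of 12512, 11984 and 11659.8 on Spdef -/- replicates 1 to 3, against 11865, 12108 and 11046 on Spdef +/+ replicates 1 to 3. The groups overlapped. The log2 difference was 0.05 with a 95% interval of -0.14 to 0.23 (limma, adjusted p 0.662). A second probe set, 1427398_at, had 7181, 6804 and 5359 in Spdef -/-, against 6291, 6359 and 5757 in Spdef +/+ epithelium. It too overlapped, with a log2 difference of 0.06 (95% interval -0.25 to 0.37, adjusted p 0.745 over probe sets). Another, 1432119_at, was Absent on all 6 arrays at 18.2 to 19.05 in Spdef -/- and 2.89 to 15.95 in Spdef +/+ epithelium, and was not tested. The first of these carries 2 gene IDs in the file, of which 1 is in the RefSeq table.

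Muc20, the membrane mucin whose gene overlaps that of Muc4, was Present on all 6 arrays with 1451786_at. Its signals were 4796, 4023 and 3534 on Spdef -/- replicates 1 to 3, against 4000.2, 3916 and 4024 on Spdef +/+ replicates 1 to 3. The Spdef -/- arrays spread on both sides of a narrow Spdef +/+ range, with means of 4118 ± 636 in Spdef -/- and 3980 ± 56.6 in Spdef +/+ epithelium. The log2 difference was 0.04 (95% interval -0.25 to 0.33, limma adjusted p 0.827). The other probe set, 1442960_at, was Absent on every array, at 27.7 to 40.65 in Spdef -/- and 40.8 to 48.2 in Spdef +/+ epithelium.

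Muc13 encodes a smaller membrane mucin with EGF-like domains, best known in the gut. Signals of 1419387_s_at were 386, 211 and 243 on Spdef -/- replicates 1 to 3, against 249.75, 255 and 181 on Spdef +/+ replicates 1 to 3. Spdef -/- replicate 1 lay above the other 5 arrays, which overlapped. The log2 difference was 0.26 (95% interval -0.34 to 0.86, limma adjusted p 0.445), and without that array it was 0.00083. The probe set 1419386_at was Absent on all arrays, at 96.3 to 142.7 in Spdef -/- and 63.4 to 97.7 in Spdef +/+ epithelium.

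Lgals3 had the signals 10262, 9787 and 7492 with 1426808_at on Spdef -/- replicates 1 to 3, against 8428, 9591 and 8660.2 on Spdef +/+ replicates 1 to 3. The groups overlapped, and the log2 difference was 0.03 (95% interval -0.29 to 0.36, limma adjusted p 0.862). The dimmer probe set 1445626_at had 321, 356 and 349.6 in Spdef -/-, against 286, 297 and 263 in Spdef +/+ epithelium. Those groups did not overlap, and the log2 difference of 0.28 (95% interval 0.056 to 0.50) had an adjusted p of 0.0600 over probe sets, so it was not called. The groups did not overlap for 3 of the 8 tested member probe sets (Muc16, Muc1 and this one), and over all tested probe sets 50.8% did not.

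**Figure D2:**
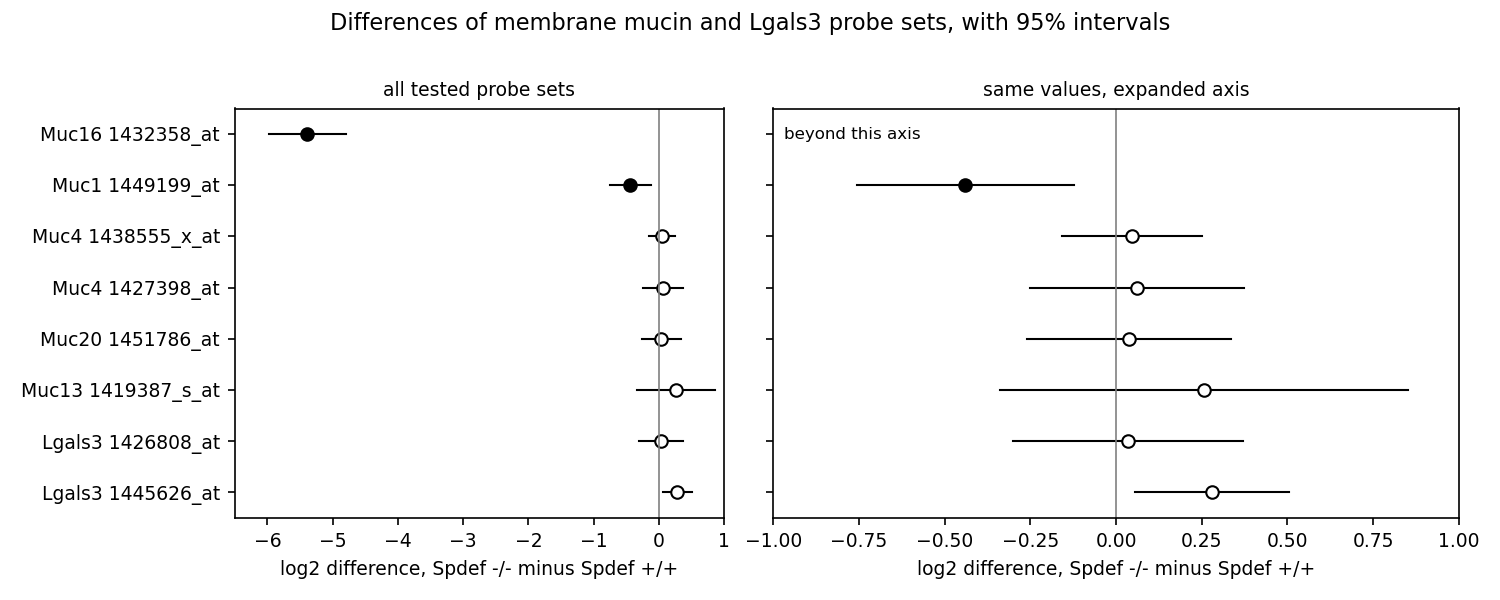
Log2 differences, Spdef -/- minus Spdef +/+, of the 8 tested member probe sets with 95% intervals from limma; filled points had an adjusted p under 0.05, and the right panel expands the axis near 0. Muc16 lies at -5.39 and Muc1 at -0.44, and the intervals of the Muc4, Muc13, Muc20 and brighter Lgals3 probe sets include 0.

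The genes with array profiles closest to Muc16, by Euclidean distance of mean-centred log2 signals over 6 arrays, were Cldn2, Tff1 and Fhl1, at distances of 0.427, 0.493 and 0.769. Cldn2, a tight junction protein that forms cation pores, had means of 31.96 ± 12.7 in Spdef -/-, called Present on none, and 1448 ± 166 in Spdef +/+ epithelium. Its log2 difference was -5.59 as fitted and -4.55 with a pseudocount of 32, and where a group had no Present call both are given, since the size rests on signals not above background. Tff1, a trefoil peptide secreted with mucus, had 191 ± 30.1 in Spdef -/- and 6871 ± 514 in Spdef +/+ epithelium, 36.3-fold lower. Fhl1, a LIM domain protein, had 104 ± 18.0 in Spdef -/- and 3066 ± 487 in Spdef +/+ epithelium, 29.5-fold lower. For Muc1 the closest were Tmco3, Alg2 (a mannosyltransferase of N-glycan assembly) and Trim34a, at 0.0813, 0.0898 and 0.123, which were 1.30, 1.42 and 1.42-fold lower. The call of Tmco3 held without Spdef -/- replicate 1 only, and that of Alg2 was lost without Spdef -/- replicate 2, Spdef +/+ replicate 1 or Spdef +/+ replicate 2. These profiles were chosen for likeness, and the distances carry no test.

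**Figure D3:**
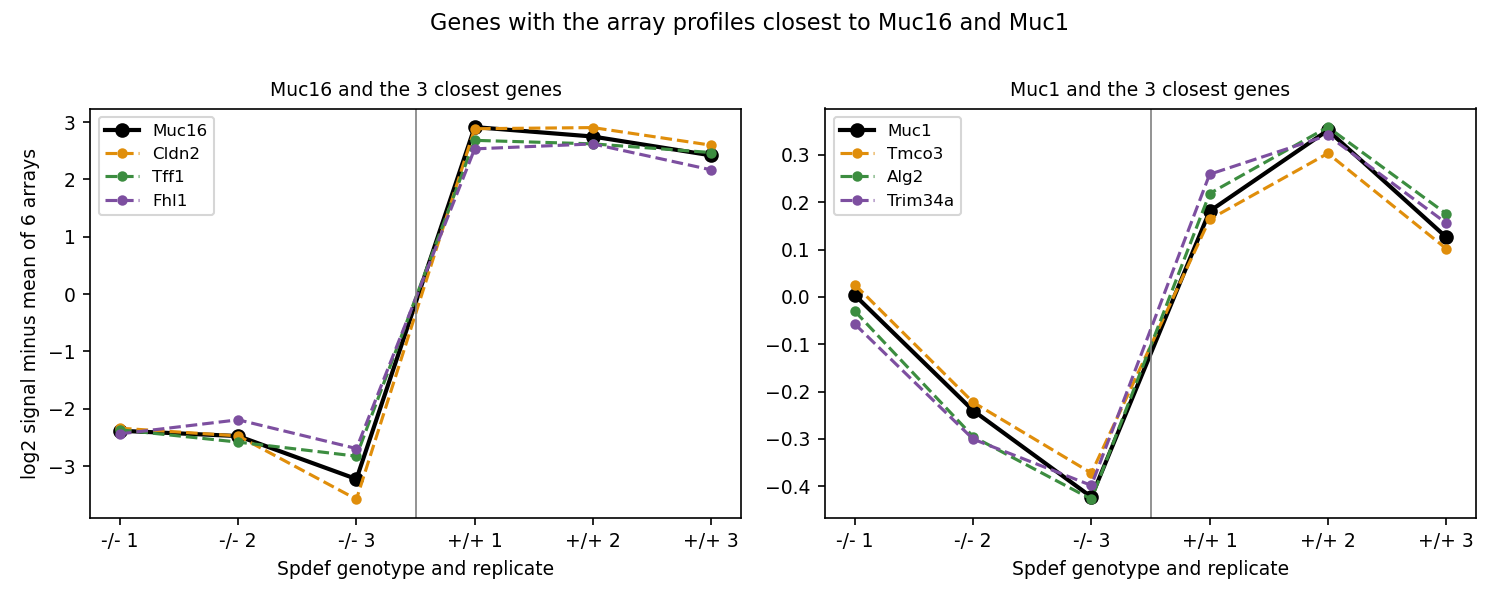
Log2 signal of each gene less its own mean over the 6 arrays, with Spdef -/- arrays left of Spdef +/+ arrays, for Muc16 with Cldn2, Tff1 and Fhl1 and for Muc1 with Tmco3, Alg2 and Trim34a. The Muc16 group drops on all 3 Spdef -/- arrays, and the Muc1 group drops by less.

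Genes related to membrane mucins were read from 9 lists with 86 tested genes. The lists hold other surface mucins, secreted mucins, galectins, O-glycan genes, cortical anchors, sheddases and tail signalling partners. Of the 86 genes, 20 were higher and 29 lower in Spdef -/- epithelium, a share of 57.0% called against 39.7% over all genes. Over all tested genes 15.8% were higher and 24.0% lower. The shares called in single lists ran from 36.4% in the tail signalling partners to 100% in the secreted mucins. The median log2 difference of the 86 genes was -0.09, against -0.06 over all tested genes. The lower counts include Muc5ac, Muc5b, Galnt5, Galnt6, Gcnt3 and Slc9a3r2, which entered the test through Present calls in Spdef +/+ epithelium, where they were high. The higher counts include Spn and B3galt5, which entered it through Present calls in Spdef -/- epithelium, where they were high.

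The other membrane and surface mucins gave 2 higher and 1 lower of 8 tested, with a median log2 difference of -0.01. That is 37.5% called, near the 39.7% over all tested genes. Selplg, the P-selectin ligand of leukocytes, was 2.18-fold higher (191 ± 27.9 in Spdef -/-, 86.9 ± 7.42 in Spdef +/+). Spn, the leukocyte sialomucin CD43, had 83.35 ± 13.3 in Spdef -/- and 47.6 ± 10.2 in Spdef +/+ epithelium, Present on 0 arrays there, with a log2 difference of 0.82 (0.54 with a pseudocount of 32). Summed T and B cell markers were 542 to 609 in Spdef -/- and 223 to 245 in Spdef +/+ epithelium. All 4 tested markers were called higher, against 15.8% of all tested genes, and Cd3e and Cd79a were Present on no array. Cd3d, Cd3g and Ms4a1 entered the test through their Present calls in Spdef -/- epithelium, where they were high. The part of these markers in the Selplg and Spn results was not tested. Cd164, a sialomucin, was 1.21-fold lower, and its call was lost without any 1 array (adjusted p 0.0566 to 0.155).

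All 3 tested of 5 listed secreted mucins were lower, with a median log2 difference of -8.71. Muc5ac, known as the chief mucin that goblet cells of this tissue secrete, had 14.5 ± 7.86 in Spdef -/- and 16558 ± 848 in Spdef +/+ epithelium, a log2 difference of -10.30 (-8.49 with a pseudocount of 32). Muc5b had 11.1 ± 2.32 in Spdef -/- and 4695 ± 1163 in Spdef +/+ epithelium, a log2 difference of -8.71 (-6.75 with a pseudocount of 32). Neither was Present on any Spdef -/- array. The Muc5b probe set carries several gene IDs, of which 1 is in the RefSeq table. With such probe sets left unnamed Muc5b dropped out, and 2 secreted mucins were lower. Muc6 was only 1.47-fold lower (48.4 ± 9.01 in Spdef -/-, 70.6 ± 9.40 in Spdef +/+), a call lost without Spdef -/- replicate 1 or 3 or Spdef +/+ replicate 1 or 2.

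The galectin list leaves out galectin-3 and counts in the galectin-3 binding protein Lgals3bp and the galectin-like gene Lgalsl. Of 8 tested, 2 were higher (Lgalsl and Lgals7) and 4 lower (Lgals1, Lgals4, Lgals9 and Lgals12), and Lgals3bp was not called. The median log2 difference was -0.66. Lgalsl was 2.03-fold higher, at 1714 ± 221 in Spdef -/- and 843 ± 76.4 in Spdef +/+ epithelium. Lgals9 was 2.18-fold lower (139 ± 26.6 in Spdef -/-, 299 ± 16.4 in Spdef +/+) and Lgals12 1.79-fold lower (179 ± 13.8 in Spdef -/-, 321 ± 39.8 in Spdef +/+).

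The enzymes that start O-glycans gave 7 lower and 1 higher of 12 tested (2 higher without Spdef -/- replicate 1), with a median log2 difference of -0.52. Galnt6, which puts the initial N-acetylgalactosamine on serine and threonine, had 24.7 ± 6.69 in Spdef -/- and 362 ± 84.7 in Spdef +/+ epithelium, a log2 difference of -3.88 (-2.78 with a pseudocount of 32). Galnt5 had 37.3 ± 4.98 in Spdef -/- and 181 ± 19.1 in Spdef +/+ epithelium, a log2 difference of -2.28 (-1.62 with a pseudocount of 32). Neither was Present on any Spdef -/- array. Galnt10 was 2.53-fold lower. The core and extension enzymes moved both ways, with 3 higher and 2 lower of 9 (1 lower when any single array other than Spdef -/- replicate 3 was left out). Gcnt3, a core-branching enzyme of mucin-type glycans, had 4.52 ± 1.20 in Spdef -/- and 71.3 ± 11.97 in Spdef +/+ epithelium, Present on no Spdef -/- array. Its log2 difference was -4.00 as fitted, -1.49 with a pseudocount of 32 and -2.14 when signals under 16 were raised to 16. B3galt5, a galactosyltransferase, had 456 ± 116 in Spdef -/- and 6.51 ± 3.45 in Spdef +/+ epithelium, Present on no Spdef +/+ array. Its log2 difference was 6.27 as fitted, 3.64 with a pseudocount of 32 and 4.80 when signals under 16 were raised to 16. Gcnt1, the core 2 enzyme, was 3.95-fold higher. The sialic acid and fucose list gave 9 lower and 2 higher of 18 (5 lower without Spdef +/+ replicate 2), with a median log2 difference of -0.40. It also holds genes of sialic acid synthesis and transport, and its only tested fucosyltransferase, Fut4, was not called (log2 difference -0.11). The Golgi CMP-sialic acid carrier Slc35a1 was 1.95-fold lower, the sialyltransferase St3gal3 2.29-fold lower and Gne, which starts sialic acid synthesis, 1.51-fold lower. Goblet cell markers fell on the same arrays, and their part in the falls of these genes was not tested.

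**Figure D4:**
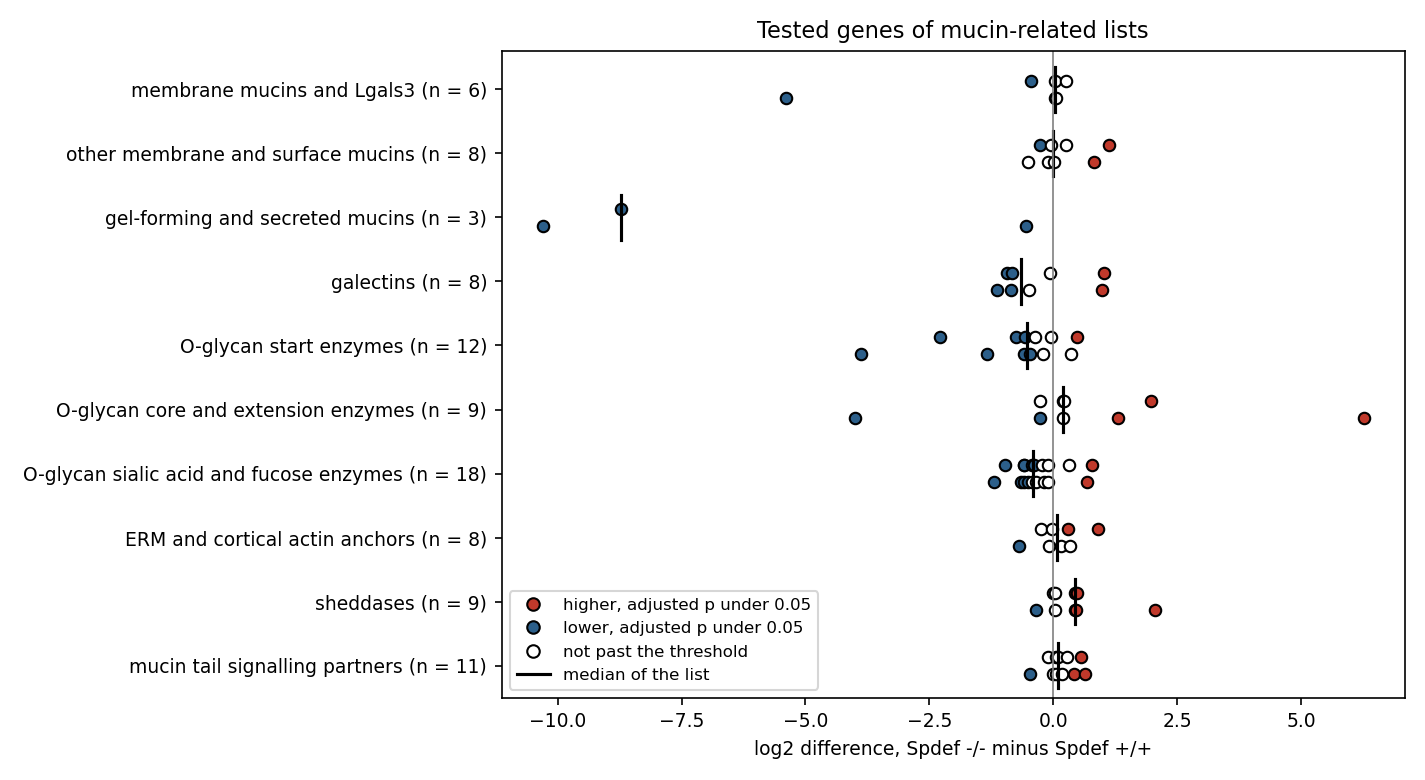
Log2 differences, Spdef -/- minus Spdef +/+, of the tested genes of each list, with higher calls in red, lower calls in blue, uncalled genes in white and bars at list medians. The secreted mucins lie lowest, with a median of -8.71, and the sialic acid and fucose list has a median of -0.40.

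Of the ERM proteins and cortical anchors that tie mucin tails to actin, 2 were higher and 1 lower of 8 tested, with a median log2 difference of 0.07. The share called, 37.5%, was near the 39.7% over all tested genes. Msn (moesin) was 1.86-fold higher, at 1009.75 ± 157 in Spdef -/- and 540 ± 50.4 in Spdef +/+ epithelium. Ezr (ezrin) was 1.23-fold higher, a call lost without Spdef -/- replicate 1 or 2 or Spdef +/+ replicate 1 or 2. The count of higher anchors was 1 without any of these 4 arrays and 4 without Spdef -/- replicate 3. Slc9a3r2, an adaptor of ERM proteins, was lower with its brightest probe set (74.3 ± 9.52 in Spdef -/-, Present on none, and 119 ± 2.56 in Spdef +/+), a log2 difference of -0.69 (-0.51 with a pseudocount of 32). Its other 4 tested probe sets had log2 differences of -1.68 to -0.28. The smallest of these was not called (adjusted p 0.265 over probe sets).

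Of the sheddases and their regulators, 5 were higher and 1 lower of 9 tested, with a median log2 difference of 0.43. Without Spdef -/- replicate 1, Spdef +/+ replicate 1 or Spdef +/+ replicate 3, 3 were higher, and without either of the last 2 arrays 0 were lower. Adam8, a protease of leukocytes, was 4.17-fold higher, at 403 ± 134 in Spdef -/- and 98.6 ± 41.4 in Spdef +/+ epithelium. Adam17, the protease known for cutting many membrane proteins, was 1.36-fold higher with its brightest probe set, while its other 2 had log2 differences of 0.43 and 0.39 that were not called. Its partner Rhbdf2 was 1.38-fold higher. The summed neutrophil markers, mostly S100a8 and S100a9, were higher on the same arrays, and their part in these results was not tested.

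Of the tail signalling partners, 3 were higher and 1 lower of 11 tested, with a median log2 difference of 0.10. The share called, 36.4%, was near the 39.7% over all tested genes. Egfr, the growth factor receptor, was 1.38-fold lower, a call lost when its probe sets were averaged (log2 difference -0.11, adjusted p 0.48). Jup, gamma-catenin, was 1.34-fold higher, and the adaptor Grb2 was 1.47-fold higher, lost when its probe sets were averaged (adjusted p 0.112).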

How the data were processed

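RNA of laser-captured conjunctival epithelium was measured on 6 Affymetrix arrays. The authors deposited linear dChip intensity values for each probe set on each array, with a detection call (Present, Marginal or Absent). The sources used here do not give the background, normalization and call algorithms. The authors' deposited comparison table holds score values (means, signed folds and their bounds) and an unadjusted p-value for 153 probe sets. Per its file header, these had a lower bound of the fold over 3, a difference over 20 and p at most 0.01. The deposited value table held the same numbers as the signal sheet in every cell, within 1e-09.

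Of 45101 probe sets 64 were controls. Probe sets took symbols from a RefSeq gene table of GRCm38.p6 by gene ID (36239), by the 1 of several IDs listed there (609) or by accession (61), and 8128 had no single symbol. Signals under 1 were set to 1 before log2. Tested were 21727 named probe sets Present on at least 3 of 6 arrays, and each of the 11899 genes was read from its brightest probe set by mean log2 signal. The test was limma 3.58.1 (R 4.3.3; lmFit and eBayes on group alone, 2-sided), with Benjamini-Hochberg adjustment over all tested genes and a threshold of 0.05. Probe sets were also fitted singly. The procedure was tested on simulated data. The number of arrays, 3 per group, limits the precision.

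The members and the gene lists were chosen with earlier results of these data known. The genes named beside the members are Spdef, up to 3 called genes of each list with the smallest p, and the 3 genes closest to each called member in their array profile, predicted genes left out. Alternatives were no detection filter, a filter on a mean signal of 50, quantile normalization, median centring, a floor of 16, a pseudocount of 32, eBayes with trend and robust (statmod 1.5.0), array weights, a replicate block, averaging over probe sets of a gene, the deposited value table, a t-test rule (fold of at least 3 and unadjusted p under 0.01, both on the same log2 values), and leaving out each array. Leaving probe sets of several gene IDs unnamed was added after the data were seen.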

Additional observations from a re-analysis of the deposited data

How the results depend on the processing

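Muc16 stayed lower and called under 18 of 18 alternatives fitted with limma, with log2 differences of -5.54 to -4.27 and adjusted p of 1.99e-06 to 0.0014, and passed the t-test rule (adjusted p 0.00489). Some of the 18 could not move its log2 difference of -5.388. The deposited value table held the same numbers, and averaging probe sets or unnaming those of several gene IDs left its only tested probe set as it was. The changed filters, the floor of 16, eBayes with trend and robust and the replicate block could alter only its standard error and adjusted p. Muc1 kept its direction but lost its call with no detection filter (-0.44) and with arrays centred on medians (-0.42). Its call was also lost without any single array other than Spdef -/- replicate 1 (-0.55 to -0.34 over all 6). At 1.36-fold lower it could not pass the t-test rule, which asks for a fold of at least 3. It also missed the other part of that rule, with an unadjusted t-test p of 0.0355 (adjusted p 0.0875). Nothing in the labels pairs arrays by replicate number, and the deviations of same-numbered arrays correlated at -0.090 to -0.013; with a replicate block Muc1 was also not called (-0.44, adjusted p 0.0549) and 1473 genes were higher and 2200 lower. The Lgals3 difference was -0.0064 after quantile normalization and -0.052 to 0.17 without single arrays. Muc20 ranged from -0.078 to 0.14 and the second Muc4 probe set from -0.022 to 0.19 without single arrays; both changed sign, and none of these was called. Genes past the threshold numbered 1878 higher and 2850 lower, 1277 to 1825 higher and 1850 (without Spdef +/+ replicate 1) to 2734 lower without single arrays, and 197 higher and 176 lower by the t-test rule. Of list genes, 20 were higher and 29 lower; the t-test rule gave 3 and 5, no filter gave 19 lower, and leaving out single arrays gave 16 to 22 higher and 20 to 25 lower. Of the results for named genes 569 of 610 kept their call and none reversed, and of the counts in single lists 278 of 324 stayed within 1.5 times. Both totals include the deposited value table, which held the same numbers and could change nothing. The cause of the changes in calls and counts was not tested.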

Other observations

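Among the 8 tested member probe sets, 6 had their highest Spdef -/- signal in replicate 1 and their lowest in replicate 3. Over all 21727 tested probe sets 21.7% had that order. Both tested Muc4 probe sets are among the 6 with that order. Of the 6 tested goblet cell markers, Tff1, Agr2 and Fcgbp had it, and Muc5ac, Muc5b and Foxa3 did not. Of the 6 conjunctival surface keratins, Krt19, Krt7 and Krt8 had it, and Krt4, Krt13 and Krt18 did not. The labels give no measure that separates these 3 arrays.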
